A study of Mus musculus with 67 samples.

Results

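The comparison described here sets 3 liver libraries from the dark phase against 3 from the light phase in mice lacking both Cry genes, Cry1 and Cry2 (CryDKO), that ate a high-fat diet only within a daily window, called time-restricted feeding. The members were grouped by their labels, and the comparison was chosen with earlier results of these data known. Restricted CryDKO libraries at zeitgeber time (ZT, hours after lights on) 15, 18 and 21 form the dark group. Those at ZT 3, 6 and 9 form the light group. Both groups together make up 6 of the 67 liver mRNA sequencing libraries of the series. The series also holds wild type (WT) mice and liver knockouts of Bmal1 and of both Rev-erb genes. For every genotype it also holds mice fed at all times (ad libitum). All mice were C57BL/6, were 24 weeks old and had eaten the high-fat diet for 12 weeks. The labels call the Cry genotype a double knockout with no driver or cell type, and the hours of the feeding window are not given in the sources used here. Each time had 1 library per feeding, so libraries of different times stand in for replicates, and the labels do not say whether they came from separate animals. The p-values below therefore measure only the spread between libraries, which mixes time of day within a phase with differences between animals and technical spread. For dark minus light, that spread was pooled in 1 fit of 12 CryDKO libraries, these 6 and 6 fed ad libitum.

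Cry1 and Cry2 encode proteins that close the feedback loop of the circadian clock by repressing the activators CLOCK and BMAL1. Without both, the molecular clock of the liver does not run on its own, but the liver still responds to meals, hormones and body temperature. After a meal, insulin turns down glucose output and fat burning and turns up glycogen and fat storage. Between meals, glucagon, glucocorticoids and fatty acids acting through the receptor PPAR alpha do the reverse. Fat is stored in lipid droplets, whose coat proteins, the perilipins, control access of the lipase ATGL, and chaperones of the heat shock family follow body temperature and protein load.

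The level of every gene is given as FPKM, a fragment count scaled to exon length and to a denominator for each library. Every difference is given as dark minus light on the log2(FPKM + 1) scale ± its standard error. On that scale a difference of 1 is about 2-fold for a gene well above 1 FPKM and understates the change of lower genes. The authors' table allowed the depth of each library to be read from the steps of its low values. It was 24140000 to 29120000 reads in the light group and 10030000 to 17390000 reads in the dark group, so the light libraries were the deeper ones. The denominator of the FPKM differed from this depth. The reads were 1.64 times the denominator at ZT3 and 1.05 to 1.19 times in the other 5 libraries, and the reason was not tested. One library stood apart: at ZT3 the acute phase genes, secreted by hepatocytes in inflammation, took 37.85% of all FPKM, against 3.03 to 6.79% in the other 5. The ZT9 library held 2176 FPKM of pancreas marker genes in sum, against 18.4 to 67.4 FPKM in the other 5. In addition, 3 measures unrelated to any one gene list also separated the phases. Mitochondrial genes made up 4.29 to 7.01% of FPKM in the light libraries and 7.54 to 8.81% in the dark ones. The mitochondrial gene mt-Nd6, which lies on the opposite strand to its neighbour mt-Nd5, stood at 3.91 to 5.04% of the mt-Nd5 level in light and 6.31 to 8.47% in dark. The last measure was the slope, on the GC content of the genes, of each library's difference from the mean of all 16 CryDKO libraries. This GC slope was 0.027 to 0.135 log2 per 10 percentage points in light and -0.037 to -0.007 in dark. The part of depth, of these measures and of the 2 libraries in the results below was not tested, beyond the values given without a library and with a GC and length correction.

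Some genes of lipid droplets, insulin signalling and chaperones separated the dark from the light libraries, in part in both directions. Plin3 and Hsdl2, which act in fat storage and in the peroxisome, came nearest to significance, and G0s2, an inhibitor of fat breakdown, had the largest difference among the 12 higher genes named by rule. No gene passed the threshold: of 9958 genes tested with limma, 0 (0%) had a Benjamini-Hochberg adjusted p under 0.05, and the lowest adjusted p was 0.0556. At an unadjusted p under 0.05 limma gave 1694 genes, 683 (6.86%) higher and 1011 (10.2%) lower in the dark. These counts turned on single libraries too: without ZT3 they were 1281 (12.9%) higher and 1137 (11.4%) lower, without ZT18 they summed to 1125, and a fit of the 6 restricted libraries alone gave 962. Limma voom, run on reads recovered from the table, gave 0 genes past the adjusted threshold and 1541 at an unadjusted p under 0.05. In 684 genes (6.87%) all 3 dark libraries lay above all 3 light libraries, and in 1129 (11.3%) all 3 lay below. The authors' table is not scaled to a common sum, and ZT3 had the highest sum, 642932 FPKM against 413854 to 462631 FPKM in the other 5 libraries. Scaling all libraries to the same sum moved the median difference of all genes from -0.02 to 0.17 and the split at an unadjusted p under 0.05 to 1980 higher and 281 lower, so small differences near 0 take their sign from the scaling. An exact permutation test of 3 libraries against 3 cannot give a two-sided p under 0.1. The number of genes past the threshold turned on 2 light libraries: it was 13 (7 higher, 6 lower) without restricted ZT3 and 43 (24 higher, 19 lower) without restricted ZT6, and 1 without ad libitum ZT15 or ad libitum ZT21. Because no gene passed, every difference below is given as a value of these libraries. Fewer cells of a type and less RNA per cell cannot be told apart in bulk liver.

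**Figure D1:**
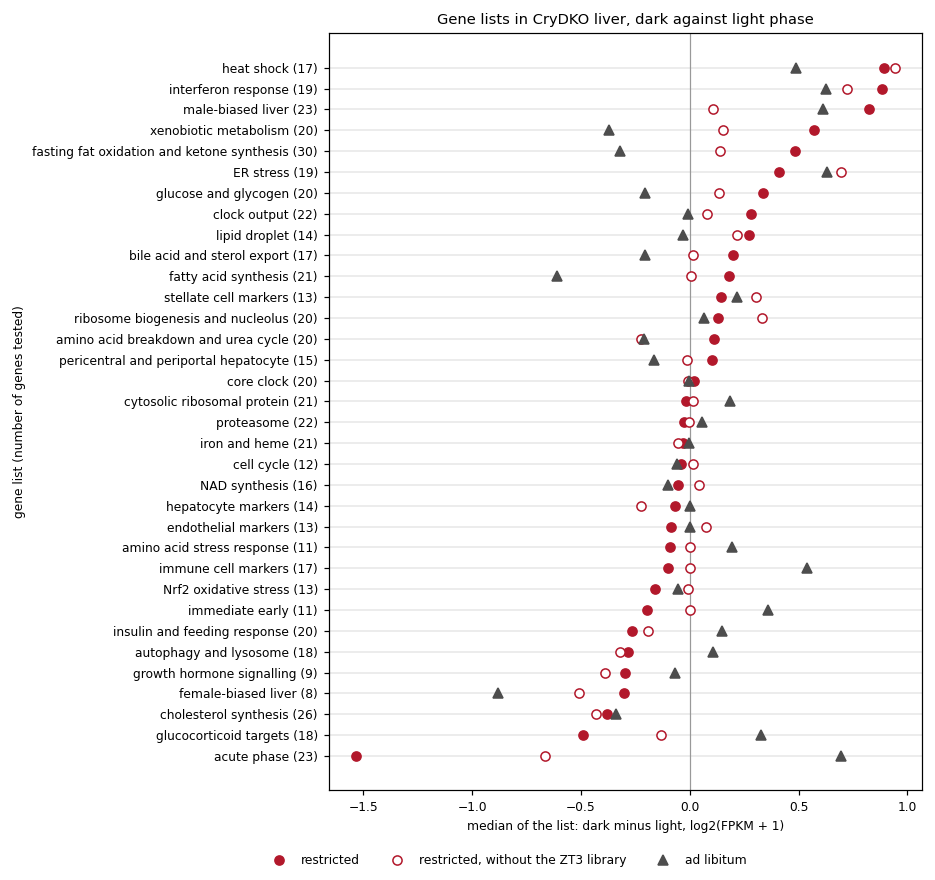
Median dark minus light difference of each gene list with at least 6 genes tested, on the log2(FPKM + 1) scale; filled circles show the 3 dark against 3 light restricted libraries, open circles the same without the ZT3 library, and triangles the ad libitum libraries. The pancreas and erythroid lists are left out; heat shock and interferon response genes have the highest restricted medians and acute phase genes the lowest, and the acute phase median moves from -1.54 to -0.66 without ZT3.

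Lipid droplet genes moved in both directions, which the median of the list does not show. Of 14 tested, 4 were higher and 3 lower at an unadjusted p under 0.05 in limma, against 6.86% and 10.2% of all genes. With no overlap between the phases 6 were higher and 3 lower, against 6.87% and 11.3% of all genes. The median difference was 0.27, against -0.02 over all genes tested. Without the ZT15 library the higher ones at that p numbered 2. Plin3 (chr17:56277476-56292873, minus strand, GRCm38), a perilipin found on small lipid droplets, had 21.9, 19.8 and 22.7 FPKM at ZT3, 6 and 9 and 9.01, 7.79 and 9.38 FPKM at ZT15, 18 and 21. The light libraries were thus all more than 2-fold above the dark ones, with little spread in either phase. The difference was -1.21 ± 0.14 (limma, adjusted p = 0.0556), and it stayed between -1.26 and -1.14 when any of the 6 libraries was left out. In the ad libitum libraries Plin3 had 12.7, 14.4 and 12.8 FPKM in light and 9.995, 11.7 and 15.6 FPKM in dark, and these overlapped.

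G0s2 (chr1:193272161-193273217, minus strand), whose product binds ATGL and blocks its lipase activity, had 11.4, 6.45 and 32.9 FPKM in light and 259, 82.3 and 222 FPKM in dark. Every dark library was above every light one, although both phases were uneven, ZT18 lying lowest in the dark and ZT6 lowest in the light. The difference was 3.53 ± 0.65 (limma, adjusted p = 0.142). Pnpla2, which encodes ATGL itself, ran the other way, with 22.8, 24.5 and 22.9 FPKM in light and 17.2, 11.2 and 11.8 FPKM in dark and a difference of -0.78 ± 0.20 (adjusted p = 0.163 in limma). Plin5, a perilipin that ties droplets to mitochondria, had 9.36, 13.9 and 14.5 FPKM in light and 26.8, 22.7 and 26.3 FPKM in dark, a difference of 0.97 ± 0.20 (limma, adjusted p = 0.142). Plin2, the main droplet coat protein of hepatocytes, had no overlap either, with 95.8, 77.5 and 55.6 FPKM against 109, 98.9 and 151 FPKM, but its difference of 0.65 ± 0.30 had an unadjusted p of 0.0525 in limma. Apoa4, an apolipoprotein made in fatty liver, was lower in the dark, at 268, 684 and 407 FPKM against 2108, 1249 and 688 FPKM in light. At ZT12 and ZT24, which belong to neither group, Apoa4 had 274 and 1608 FPKM and G0s2 had 60.2 and 29.8 FPKM. So for G0s2 both transitions lay below every dark library, ZT12 above every light library and ZT24 within the light range.

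Among the 24 genes named by smallest p, 12 in each direction, Hsdl2, a peroxisomal dehydrogenase of lipid metabolism, varied little within a phase. It had 27.5, 27.3 and 27.1 FPKM in light and 46.3, 50.6 and 43.9 FPKM in dark, a difference of 0.76 ± 0.10 (limma, adjusted p = 0.0556), and 33.6, 40.5 and 38.5 against 36.5, 34.7 and 39.5 FPKM under ad libitum feeding. Tsc22d1, a transcription regulator, had 3.90, 9.60 and 10.6 FPKM in light and 49.4, 47.5 and 28.7 FPKM in dark (2.31 ± 0.41, limma adjusted p = 0.142). Rcan1, an inhibitor of the phosphatase calcineurin, had 9.68, 6.52 and 5.83 FPKM in light and 20.8, 23.3 and 13.4 FPKM in dark. Sar1b, a GTPase that loads secretory vesicles and lipoproteins, and Ormdl3, a regulator of sphingolipid synthesis, were also higher in every dark library, by 0.71 ± 0.14 and 0.54 ± 0.11. The mitochondrial genes Chchd4 (an import factor) and Mrps6 (a ribosomal protein) differed by 0.66 ± 0.13 and 0.45 ± 0.09. Fam107b (1.01 ± 0.17) and Tmem64 (0.59 ± 0.12) did not overlap between phases either, and Dnaja1 and Plin5 are described with their lists.

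Of the 12 lower genes, Erbb3, a receptor of the EGF family, had 55.2, 40.9 and 34.1 FPKM in light and 9.82, 14.5 and 12.6 FPKM in dark, a difference of -1.73 ± 0.30 (limma, adjusted p = 0.142). The zinc transporter gene Slc39a4 had 13.4, 10.3 and 16.6 FPKM in light and 5.43, 2.82 and 3.98 FPKM in dark (-1.52 ± 0.26). Amino acid metabolism had 2 genes among them, Ccbl1, a kynurenine aminotransferase, at 65.9, 40.7 and 57.6 against 20.8, 23.9 and 25.9 FPKM, and Sdsl, related to serine dehydratase, at 21.6, 7.03 and 14.2 against 4.76, 3.63 and 3.73 FPKM. All 4 were at their highest or next to highest at ZT3, and all 4 kept the light group wholly above the dark group. Eif4ebp1, the translation brake that mTORC1 phosphorylates, had 41.9, 28.1 and 26.96 FPKM in light and 19.6, 13.2 and 11.7 FPKM in dark (-1.08 ± 0.22). The other lower genes were Atg13 (-0.59 ± 0.11), which starts autophagy, Hook2 (-0.70 ± 0.12), Ddx46 (-0.68 ± 0.13), Rnh1 (-0.42 ± 0.09), Ctdsp2 (-0.66 ± 0.14) and Wdr81 (-0.81 ± 0.17).

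Genes of fasting fat oxidation and ketone synthesis, most of them targets of PPAR alpha, were more often higher than lower in the dark. Of 30 tested, 7 were higher and 0 lower at an unadjusted p under 0.05 in limma, against 6.86% and 10.2% of all genes. The median of the list was 0.48. The ad libitum libraries had a median of -0.32, with 0 higher and 3 lower at that p. The restricted median depended on the ZT3 library: without it the median was 0.14, with 4 higher and 1 lower, near the 12.9% and 11.4% of all genes without that library, and without ZT15 the count was 3 higher. Acaa1b, a peroxisomal thiolase, had 15.6, 136 and 69.2 FPKM in light and 372, 288 and 200.1 FPKM in dark (2.36 ± 0.60; limma, adjusted p = 0.156), and the difference was 1.51 without ZT3. The ad libitum values of Acaa1b ran the other way, from 372, 442 and 281 FPKM in light to 202, 141 and 148 FPKM in dark. Cpt2, which releases fatty acids for oxidation inside mitochondria, had 41.4, 61.3 and 46.5 FPKM in light and 71.6, 72.98 and 77.3 FPKM in dark (0.58 ± 0.14). The dark libraries thus lay within 6 FPKM of each other. Fgf21, a fasting hormone, was low throughout, at 0.388, 0.336 and 1.40 FPKM in light and 2.93, 1.69 and 4.70 FPKM in dark (1.25 ± 0.41). Aldh3a2, a fatty aldehyde dehydrogenase, differed by 1.38 ± 0.57 but by 0.56 without ZT3, where it had 6.44 FPKM. Acot1, an acyl-CoA thioesterase, overlapped between phases at 0.848, 4.06 and 10.4 against 20.6, 10.1 and 8.21 FPKM. Textbook fasting genes gave no common direction: Pdk4, which spares glucose, had 2.58, 1.12 and 4.85 FPKM in light and 3.69, 3.54 and 8.01 FPKM in dark, and Cpt1a, the gate of mitochondrial oxidation, differed by -0.23 ± 0.28.

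Among genes of glucose output and glycogen storage, G6pc and Ppp1r3c were higher in every dark library, while Pck1 was not. G6pc (chr11:101367561-101377903, plus strand), the enzyme that releases free glucose from the liver, had 19.6, 65.1 and 36.9 FPKM in light and 208, 158 and 154 FPKM in dark. The lowest dark library was more than 2-fold above the highest light library, and the difference was 2.22 ± 0.46 (limma, adjusted p = 0.142). Pck1, the key enzyme of glucose synthesis from lactate and amino acids, did not follow it: 207, 700.2 and 223 FPKM in light, 171, 485 and 228 FPKM in dark, a difference of -0.26 ± 0.47. Ppp1r3c, which targets a phosphatase to glycogen, had 13.4, 16.9 and 34.3 FPKM in light and 62.7, 55.6 and 70.8 FPKM in dark (1.61 ± 0.50; limma, adjusted p = 0.182). Its relative Ppp1r3b overlapped by 1 library, with 51.7, 87.7 and 149.9 against 214, 149 and 182 FPKM. Pcx, pyruvate carboxylase, was the 1 gene of the list lower at an unadjusted p under 0.05, at 138, 121 and 114 FPKM in dark against 222, 143 and 186 FPKM in light. Over the 20 genes tested, 2 lay apart higher and 1 lower, near the 6.87% and 11.3% of all genes. At that p in limma 3 were higher and 1 lower, and 2 to 7 were higher with 1 restricted library left out, with a median of 0.34 (0.13 without ZT3) and an ad libitum median of -0.21.

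Genes that insulin and feeding control separated the phases in both directions. Of 20 tested, 4 were higher and 6 lower at an unadjusted p under 0.05 in limma, against 6.86% and 10.2% of all genes. With 1 restricted library left out 1 to 4 were higher and 4 to 7 lower, fewest of the higher ones without ZT15. Igfbp1 (chr11:7197782-7202546, plus strand), a secreted binding protein of insulin-like growth factors that insulin represses, had 188, 16.5 and 29.2 FPKM in light and 4.41, 6.03 and 4.57 FPKM in dark. All 3 dark values lay within 2 FPKM of each other and below every light value. The difference was -2.96 ± 0.96 (limma, adjusted p = 0.187), and -1.95 without ZT3. The transitions were high, with 119 FPKM at ZT12 and 112 FPKM at ZT24, so that ZT15, 18 and 21 were the 3 lowest of the 8 restricted times. Irs2, an insulin receptor substrate that fasting induces, had 4.31, 1.44 and 2.02 FPKM in light and 0.318, 0.545 and 0.919 FPKM in dark (-1.11 ± 0.32). Insr, the insulin receptor, went the same way at 23.7, 18.6 and 19.7 against 14.8, 12.6 and 12.5 FPKM (-0.60 ± 0.16). Irs1, the other main substrate in liver, was the reverse, at 0.815, 1.76 and 2.12 FPKM in light and 3.87, 4.70 and 2.29 FPKM in dark (0.85 ± 0.24). The 2 substrates of the receptor thus had opposite signs, and their adjusted p was 0.171 and 0.171 in limma. Socs2, a feedback inhibitor that growth hormone induces, had 3.97, 3.53 and 3.07 FPKM in light and 0.252, 0.143 and 0.649 FPKM in dark (-1.76 ± 0.47; limma, adjusted p = 0.168).

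**Figure D2:**
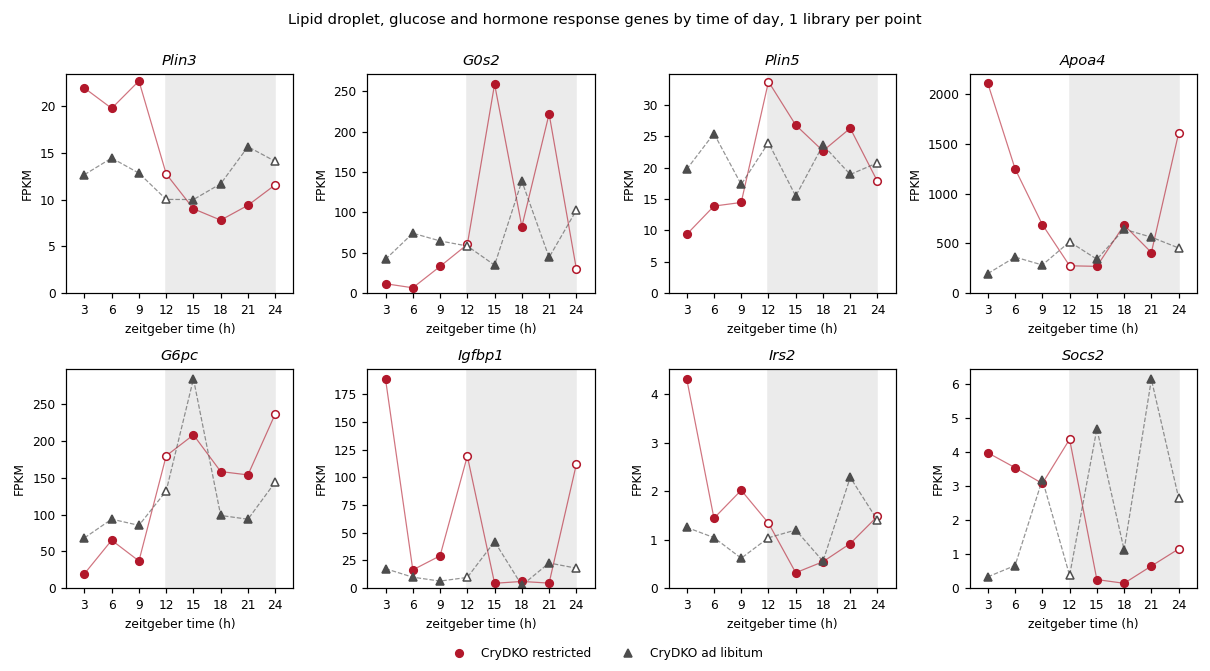
FPKM (linear axis from 0) of 8 lipid droplet, glucose and hormone response genes against zeitgeber time in hours, 1 CryDKO library per point; red circles are restricted feeding, grey triangles ad libitum, open symbols at ZT12 and ZT24 are libraries outside the comparison, and the shaded span is the dark phase. Plin3, Igfbp1, Irs2 and Socs2 lie lower in the 3 restricted dark libraries and G0s2, Plin5 and G6pc higher, for example G6pc at 208, 158 and 154 FPKM against 19.6, 65.1 and 36.9 FPKM in light.

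Autophagy genes, and a few of the amino acid stress response, were on the lower side in the dark. Of 18 autophagy and lysosome genes tested, 0 were higher and 7 lower at an unadjusted p under 0.05 in limma, against 6.86% and 10.2% of all genes. The median of the list was -0.29. Leaving out any 1 restricted library gave 6 to 8 lower and a median between -0.32 and -0.24. Scaling all libraries to the same sum of FPKM gave 3 lower and a median of -0.04. The ad libitum median was 0.11, with 0 in either direction. Wipi1, which helps form the autophagosome, had 4.80, 4.71 and 4.36 FPKM in light and 1.61, 2.68 and 1.73 FPKM in dark (-0.92 ± 0.18; limma, adjusted p = 0.142). Map1lc3b, the membrane-bound autophagosome protein, had 17.3, 8.42 and 8.37 FPKM in light and 7.73, 6.24 and 4.82 FPKM in dark (-0.71 ± 0.26; -0.39 without ZT3), its ZT3 value being about 2-fold the other light values. The cathepsin D gene Ctsd showed a small and even difference, 137, 133 and 136 against 111, 108 and 112 FPKM (-0.29 ± 0.10). Ctsl, another lysosomal protease, overlapped through ZT6, at 944, 384 and 606 against 420.1, 259.7 and 271 FPKM. Among the 11 genes of the amino acid stress response tested, 0 were higher and 3 lower at that p (6.86% and 10.2% of all genes): Chac1, Asns and Trib3. Chac1, a glutathione-degrading enzyme, had 5.25, 9.43 and 1.05 FPKM in light and 0.244, 0.319 and 0.408 FPKM in dark (-1.95 ± 0.61). Asns, asparagine synthetase, was near the lower limit of detection in the dark at 0.0293, 0.497 and 0.355 FPKM, against 3.73, 0.799 and 2.13 FPKM in light (-1.23 ± 0.36). The other 8 genes of that list did not reach the unadjusted threshold, and Ddit3 had the opposite sign (0.87 ± 0.41; 0.57 without ZT6).

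The heat shock genes, chaperones and their helpers that HSF1 controls, had the highest median of the lists, just above interferon response genes (0.88). Interferon genes had the higher median with voom and without ZT6, ZT9, ZT15 or ZT18, and male-biased genes also did without ZT6 or ZT15. Of 17 heat shock genes tested, 11 were higher and 0 lower in the dark at an unadjusted p under 0.05 in limma, against 6.86% and 10.2% of all genes. With no overlap between phases 8 were higher (6.87% of all genes), and the median was 0.89. Without ZT3 the count at that p was 13, against 12.9% of all genes, and the median was 0.94. The count was 6 without ZT18 and 7 without ZT9. Hspa8 (chr9:40800984-40810087, plus strand), the constitutive HSP70, had 1.06, 6.50 and 2.18 FPKM in light and 43.9, 45.7 and 14.9 FPKM in dark (3.14 ± 0.73; limma, adjusted p = 0.15). Its level is uncertain, since Hspa8 has near-identical pseudogene copies among which counting can divide reads. Hsph1, an HSP110 that exchanges the nucleotide of HSP70, had 5.53, 3.54 and 5.26 FPKM in light and 24.6, 27.7 and 11.1 FPKM in dark (1.86 ± 0.49; limma, adjusted p = 0.165). Dnaja1, a J-domain partner of HSP70, had 4.33, 4.36 and 5.05 FPKM in light and 17.4, 14.05 and 8.76 FPKM in dark (1.32 ± 0.27; limma, adjusted p = 0.142). Dnajb1, the stress-induced partner, had 7.03, 6.52 and 7.36 FPKM in light and 18.7, 16.1 and 10.4 FPKM in dark. In all 4 genes ZT21 was the lowest of the dark libraries, and it still lay above every light library. Of the HSP90 partners, Stip1, which links HSP70 to HSP90, had 34.5, 24.6 and 27.6 against 48.6, 79.2 and 46.3 FPKM, and Fkbp4, a steroid receptor co-chaperone, 38.7, 65.3 and 57.8 against 88.6, 139 and 104 FPKM. Hsp90aa1, the inducible HSP90, overlapped through ZT3, at 18.95, 8.83 and 4.96 against 19.5, 37.6 and 15.1 FPKM. The mitochondrial chaperonins Hspd1 and Hspe1 overlapped too (0.27 ± 0.15 and 0.39 ± 0.18), and Hsf1 itself differed by -0.04 ± 0.18. Cirbp, an RNA-binding protein induced by cold, had the opposite sign, with 4.24, 7.54 and 11.4 FPKM in light and 1.94, 1.81 and 3.14 FPKM in dark (-1.34 ± 0.38), whereas the other cold-inducible gene, Rbm3, overlapped (-0.14 ± 0.21).

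Promoters are shown for the heat shock genes because they differed in one direction and share a known binding motif. RefSeq promoter windows on GRCm38.p6, 250 bases before to 50 after a gene start, were found for 13 of the 17. The palindromic motif GAANNTTC, a pair of HSF1 units read identically on both strands, was present in a window of 9 of these 13 (69.2%), against 539 of 7486 genes tested that had a window (7.20%). The heat shock list was drawn up as HSF1 targets, so this describes the list and is not independent of it. The motif was present in 0 of the 15 core clock genes with a window. Hspd1 and Hspe1 have overlapping windows on opposite strands, and the same match was counted for each. No gene passed the test, so the motif counts planned for passing genes are empty. The 250 bases before the start of Dnaja1 (chr4:40722218-40722467, plus strand) hold the motif, in capitals, 124 bases before the start.
Dnaja1: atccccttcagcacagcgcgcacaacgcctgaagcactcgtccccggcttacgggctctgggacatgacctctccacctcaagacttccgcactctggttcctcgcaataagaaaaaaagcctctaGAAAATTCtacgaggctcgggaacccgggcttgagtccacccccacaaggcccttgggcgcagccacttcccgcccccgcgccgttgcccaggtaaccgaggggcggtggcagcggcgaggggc
In Hsph1 the match lies 20 bases after the start of one annotated transcript, shown with 10 bases on each side (chr5:149636278-149636305, minus strand), the motif again in capitals.
Hsph1: gcagattctgGAAAGTTCtcctcagtag
Dnajb1 and Stip1 had windows with no match, and both were higher in every dark library.

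**Figure D3:**
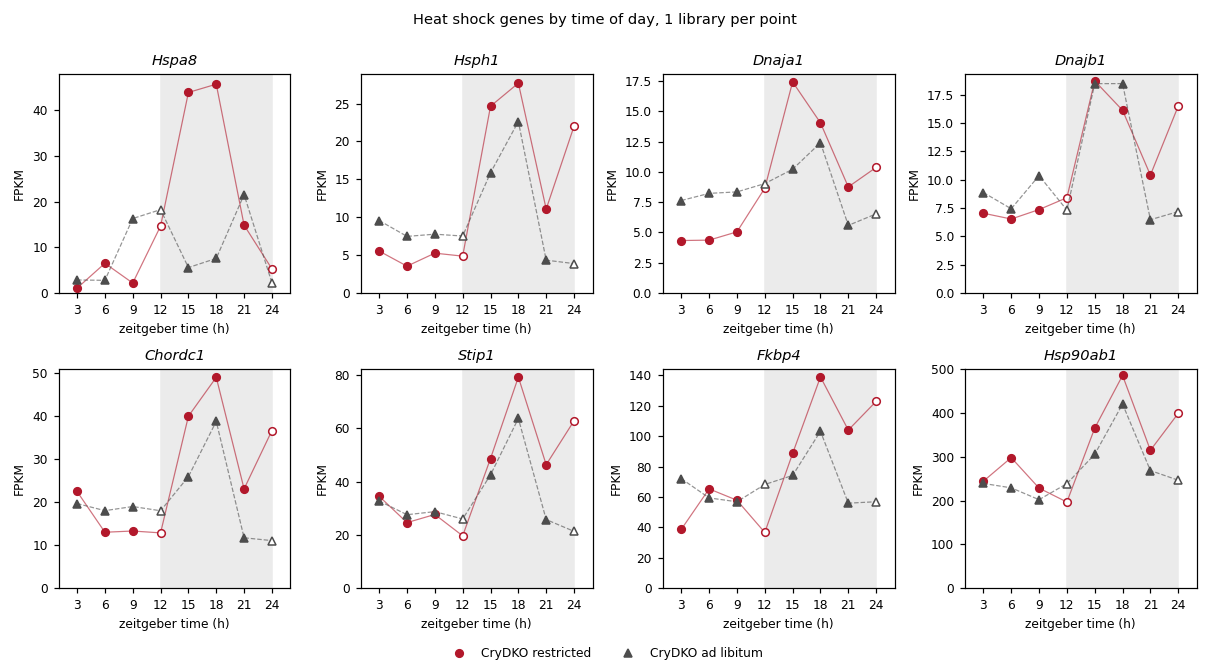
FPKM (linear axis from 0) of the 8 heat shock genes whose restricted dark and light libraries did not overlap, against zeitgeber time in hours, 1 CryDKO library per point; red circles are restricted feeding, grey triangles ad libitum, open symbols at ZT12 and ZT24 are outside the comparison, and the shaded span is the dark phase. All 8 lie higher at restricted ZT15, 18 and 21 than at ZT3, 6 and 9; ad libitum values of Hsph1, Dnajb1, Chordc1 and Stip1 are high at ZT15 and ZT18 and low at ZT21.

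Endoplasmic reticulum (ER) stress genes, chaperones and degradation factors of the secretory pathway, were higher in part. Of 19 tested, 4 were higher and 0 lower at an unadjusted p under 0.05 in limma, against 6.86% and 10.2% of all genes. With no overlap the count was 0, and the median was 0.41. Without ZT3 the numbers were 10 higher at that p, against 12.9% of all genes, and a median of 0.70. Hspa5, the main chaperone of the ER, had 318, 141 and 210.1 FPKM in light and 355, 718 and 293 FPKM in dark, with ZT3 among the dark values and ZT18 far above the others. Creld2, an ER stress gene of collagen folding, had 78.8, 18.1 and 22.2 FPKM in light and 62.7, 215 and 46.1 FPKM in dark, again with ZT3 high and ZT18 highest. Without ZT18 no ER stress gene was higher at that p in limma (0 of 19; voom with all libraries gave 4) and the median was 0.07, and without ZT6 or ZT9 the count was 1. Of 20 ribosome biogenesis genes 2 were higher at that p, near the share of all genes. The count was 10 without ZT3, against 12.9% of all genes, and 0 without ZT6, ZT9 or ZT18. Nolc1, a nucleolar scaffold, had 13.3, 7.28 and 5.18 FPKM in light and 14.97, 15.2 and 14.2 FPKM in dark. Interferon response genes, which defend against viruses, had 7 of 19 higher and 0 lower at that p (6.86% and 10.2% of all genes). Their median was 0.88. Without ZT3 the count of higher interferon genes was 3, against 12.9% of all genes. Without ZT21 it was also 3, against 585 of all 9958 genes. It was 12 without ZT6 or ZT15, against 767 and 596 of all 9958. Mx2, an antiviral GTPase, was the most even of them, at 1.83, 1.94 and 1.66 FPKM in light and 3.12, 5.12 and 4.43 FPKM in dark (0.88 ± 0.17; limma, adjusted p = 0.142). Ifit1, the one with the greatest difference, overlapped, at 1.33, 8.89 and 3.38 against 6.21, 19.7 and 51.7 FPKM. Immune cell markers, measured beside them, summed to 410.8 to 558 FPKM in light and 363 to 544.2 FPKM in dark, with 0 of 17 at an unadjusted p under 0.05 in limma.

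The acute phase genes had the lowest median of all lists but the pancreas markers, -1.54. Among 23 tested, 0 were higher and 14 lower in the dark at an unadjusted p under 0.05 in limma, against 6.86% and 10.2% of all genes. The light values of the acute phase genes came from an exceptional ZT3 library and a raised ZT9 library. Saa1, serum amyloid A, had 41908, 81.6 and 3147 FPKM in light and 46.8, 179 and 52.1 FPKM in dark, so ZT6 lay within the dark range. Saa2, its near-identical neighbour whose reads counting may divide with Saa1, had 45104, 34.7 and 2661 FPKM in light and 21.5, 34.6 and 19.2 FPKM in dark. Lcn2, an iron-scavenging protein of inflammation, had 3292, 4.39 and 154 FPKM in light and 1.53, 4.18 and 2.61 FPKM in dark. In each of these genes ZT3 stood far above ZT6, within a single phase. Hpx, which binds heme, had 36512, 3737 and 7154 FPKM in light and 2696, 3301 and 3198 FPKM in dark. Without ZT3 the list had 1 higher and 3 lower at that p, against 12.9% and 11.4% of all genes, and a median of -0.66. Without ZT15, ZT18 or ZT21 the lower genes numbered 4, 7 and 5. The ad libitum libraries had the opposite sign, a median of 0.70, with Saa1 at 41.6, 44.01 and 64.1 FPKM in light and 68.1, 232 and 2161 FPKM in dark, where ZT21 was the high one. Mt1 and Mt2, metallothioneins that glucocorticoids, zinc and inflammation induce, were also highest at ZT3 and next at ZT9, Mt1 at 7414, 27.8 and 344 FPKM in light and 106, 6.19 and 5.73 FPKM in dark. Elovl3, a fatty acid elongase higher in males, was lowest in the same ZT3 library: it had 1.05, 461 and 18.9 FPKM in light and 274, 679 and 638 FPKM in dark, and its difference of 4.21 ± 1.45 was 2.36 without ZT3.

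**Figure D4:**
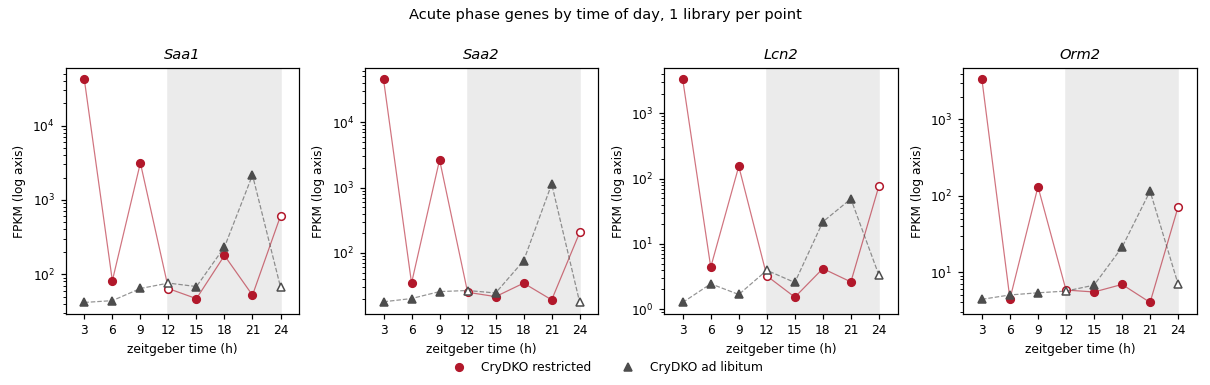
FPKM (log axis) of 4 acute phase genes against zeitgeber time in hours, 1 CryDKO library per point; red circles are restricted feeding, grey triangles ad libitum, open symbols at ZT12 and ZT24 are outside the comparison, and the shaded span is the dark phase. Restricted ZT3 is highest in all 4 panels and restricted ZT9 next; Saa1 reads 41908, 81.6 and 3147 FPKM at ZT3, 6 and 9.

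Genes of drug and xenobiotic metabolism and of lipid synthesis differed less clearly. Of 20 xenobiotic genes tested, 5 were higher and 1 lower at an unadjusted p under 0.05 in limma, against 6.86% and 10.2% of all genes. Without ZT3, and also without ZT15, 1 was higher and 2 lower. Without ZT3 the shares of all genes were 12.9% and 11.4%, and the median of the list went from 0.57 to 0.15. Cyp3a11, a main drug-oxidizing cytochrome, had 111, 409 and 350.3 FPKM in light and 868, 413 and 669.7 FPKM in dark, so that ZT6 and ZT18 were nearly level. Ces1d, a carboxylesterase, had 144, 498 and 578 FPKM in light and 987, 676 and 857 FPKM in dark. In fatty acid synthesis 2 of 21 genes were higher and 0 lower at that p, against 6.86% and 10.2% of all genes, with a median of 0.18. Thrsp, an activator of lipogenesis, was one of them, at 122, 197 and 127 FPKM in light and 375, 613 and 397 FPKM in dark (1.63 ± 0.41; limma, adjusted p = 0.156). Fasn, the fatty acid synthase itself, overlapped, at 26.8, 18.2 and 67.6 against 46.8, 42.9 and 50.2 FPKM. Scd1, the stearoyl-CoA desaturase, was uneven in both phases, at 274, 76.5 and 272 against 864, 101 and 376 FPKM. In cholesterol synthesis 1 of 26 was higher and 1 lower at that p, against 6.86% and 10.2% of all genes. Without ZT21, 8 of the list were lower, against 939 of all 9958 genes. The median of the list was -0.38 (0.14 without ZT15). The dark libraries disagreed: Hmgcs1, an early enzyme of the pathway, had 11.7, 115 and 214 FPKM at ZT15, 18 and 21. Cyp7a1, which sets the pace of bile acid production, had 0.345, 40.8 and 76.8 FPKM in light and 86.5, 38.8 and 43.4 FPKM in dark, with ZT3 far below the rest.

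The same contrast in the 6 ad libitum CryDKO libraries asks whether the phase differences go with the feeding schedule. There, limma gave 0 genes past the adjusted threshold and 470 (4.72%) at an unadjusted p under 0.05; 1060 genes (10.6%) were higher and 881 (8.85%) lower in the dark with no overlap. The difference between the feedings passed for 0 of 9958 genes (0%), with a lowest adjusted p of 0.425, and for 1068 (10.7%) at an unadjusted p under 0.05, while voom gave 0 and 981. The latter count in limma was 625 without ad libitum ZT21 and 658 without ad libitum ZT6. The 8 genes with the smallest p were Hsdl2, Fam107b, Tsc22d1, Plin3, Cpsf4, Rtn4, Zbtb42 and Slc35d2. For Plin3, the restricted dark minus light difference less the ad libitum one was -1.10 ± 0.20 (unadjusted p = 0.000264 in limma). For Hsdl2 it was 0.78 ± 0.14, for Fam107b 1.22 ± 0.23 and for Tsc22d1 2.81 ± 0.57. In Plin3, Hsdl2 and Fam107b all 6 ad libitum values lay between the restricted light and the restricted dark values. Tsc22d1 had 26.3, 28.4 and 20.2 FPKM ad libitum in light and 12.96, 31.7 and 11.9 FPKM in dark, 5 of them between its restricted phases and ZT18 within the restricted dark range. Rtn4, a protein that shapes the ER, and Slc35d2, a nucleotide sugar transporter, had opposite signs in the 2 feedings: 0.37 ± 0.13 and 0.52 ± 0.11 restricted, -0.54 ± 0.13 and -0.25 ± 0.11 ad libitum. Cpsf4, an mRNA 3′ end processing factor, likewise had -0.29 ± 0.10 restricted and 0.39 ± 0.10 ad libitum. Heat shock genes shared their sign between feedings, with an ad libitum median of 0.49 and 2 of 17 higher at an unadjusted p under 0.05. Hsph1 had 15.9, 22.6 and 4.33 FPKM at ad libitum ZT15, 18 and 21, the last below every ad libitum light value. Socs2, Igfbp1 and Apoa4 had opposite signs ad libitum, at 1.07 ± 0.47, 0.42 ± 0.96 and 0.87 ± 0.45.

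A few core clock genes of restricted CryDKO liver were higher in the dark, by less than 1 on the log2 scale. The deleted genes were examined first: Cry1 had 10.6, 9.28 and 7.31 FPKM in light and 12.5, 14.04 and 11.1 FPKM in dark, and Cry2 had 2.82, 2.29 and 2.73 FPKM in light and 2.85, 2.65 and 2.73 FPKM in dark. FPKM is taken over all exons, so reads of a transcript that lacks only part of the gene still count and these values do not check the deletion. Of 20 core clock genes tested, 5 were higher and 0 lower at an unadjusted p under 0.05 in limma, against 6.86% and 10.2% of all genes, and the median was 0.02. Without ZT3 these counts were 5 and 3, against 12.9% and 11.4% of all genes. Without ZT9 or ZT18 the higher ones numbered 1. The 5 were Hlf, Per2, Bhlhe40, Cry1 and Clock. Hlf, an output transcription factor of the PAR bZIP family, had 6.89, 13.5 and 12.6 FPKM in light and 21.03, 20.1 and 15.3 FPKM in dark (0.76 ± 0.21; limma, adjusted p = 0.17), and the difference was 0.48 without ZT3. Per2, the partner of the CRY proteins, had 9.15, 6.60 and 8.15 FPKM in light and 12.5, 12.8 and 10.6 FPKM in dark (0.54 ± 0.22). Bhlhe40, a repressor that feeding and the clock both control, had 46.5, 35.1 and 44.6 FPKM in light and 81.4, 70.2 and 54.9 FPKM in dark. Arntl, which encodes BMAL1, overlapped at 7.24, 3.73 and 3.84 against 4.24, 5.97 and 6.35 FPKM. Dbp, a sister of Hlf and a direct clock target, overlapped as well, at 12.8, 41.8 and 45.8 against 22.3, 24.3 and 30.6 FPKM. The overlap of both rested on ZT3: without it Arntl was higher in the dark by 0.43 and Dbp differed by -0.76 (limma, unadjusted p = 0.000594 and adjusted p = 0.0609), against -0.19 ± 0.37 with it. Npas2, a relative of Clock, was listed at 0 in all 6 libraries.

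The 8 restricted WT libraries, 2 each at ZT4 and ZT8 in light and at ZT16 and ZT20 in dark, give the change between the same phases in mice with both Cry genes. Their times differ from those of CryDKO by 1 or 2 hours, and the restricted CryDKO values are shared with the comparison above. In WT, 4 genes passed in limma, Cry1 and Nr1d1 among them. The WT median was 0.92 for heat shock, 0.76 for ER stress and -0.34 for autophagy genes, against -0.04 for all genes. These list medians had the sign of restricted CryDKO and are not particular to it. Other lists lay further from restricted CryDKO, with WT medians of -0.12 for interferon response and -0.19 for acute phase genes. The difference between the CryDKO and the WT change passed in limma for 1 of 9958 genes (0.01%), and 396 (3.98%) had an unadjusted p under 0.05. Voom gave 1 and 366, and the latter count in limma was 619 without CryDKO ZT6 and 612 without WT replicate 1 of ZT16. The count of genes past the threshold was 0 without restricted CryDKO ZT9, ZT15, ZT18 or ZT21, 2 without ZT6 and 3 without ZT3. It was also 0 without either WT library of ZT16 or replicate 1 of ZT20, and 2 without replicate 2 of ZT8. Cry1 had 3.70, 3.81, 1.66 and 2.46 FPKM in WT light and 17.5, 15.8, 19.1 and 23.0 FPKM in WT dark, and the difference of its changes was -1.94 ± 0.30 (limma, adjusted p = 0.0914). Nr1d1, which encodes Rev-erb alpha, had 4.43, 7.53, 20.4 and 12.1 FPKM in WT light and 1.64, 0.401, 0.232 and 0.122 FPKM in WT dark, against 11.2, 11.05 and 12.7 and 9.26, 11.9 and 11.5 FPKM in CryDKO (2.73 ± 0.54; limma, adjusted p = 0.454). For both genes the CryDKO libraries covered a narrower range than the WT libraries, whose phases did not overlap. Outside the clock, Erbb3 (-1.60 ± 0.35), Esr1 (-1.21 ± 0.25), the estrogen receptor gene, Glo1 (1.38 ± 0.31), a detoxifier of methylglyoxal, Ugt1a9 (-1.82 ± 0.41) and Raet1d (1.21 ± 0.29) had the next smallest p, with adjusted p of 0.501 to 0.931 in limma. Glo1 had 168, 117 and 92.1 FPKM in restricted CryDKO light and 242, 218 and 276 FPKM in dark. The GC slope of the WT libraries, also taken against the CryDKO mean, was -1.11 to -0.138 log2 per 10 points, apart from all 6 CryDKO libraries. It can thus hold expression differences of genotype, and genotype and this measure cannot be told apart in levels. Within WT the slope was -0.636 to -0.138 in light and -1.11 to -0.306 in dark, so it also shifted with phase. It differed by replicate number too, without overlap. Replicate 1 had -0.167 and -0.138 in light and -0.306 and -0.454 in dark. Replicate 2 had -0.636 and -0.6 in light and -1.11 and -0.977 in dark. The phases overlapped only across replicate numbers. With the GC and length correction the difference of changes passed for 1 of 9581 genes, and 553 had an unadjusted p under 0.05 in limma. WT ZT16 replicate 2 had the highest sum of these WT libraries, 698391 FPKM, and replicate 1 held 1933.6 FPKM of pancreas markers. Their part was not tested beyond leaving each out.

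**Figure D5:**
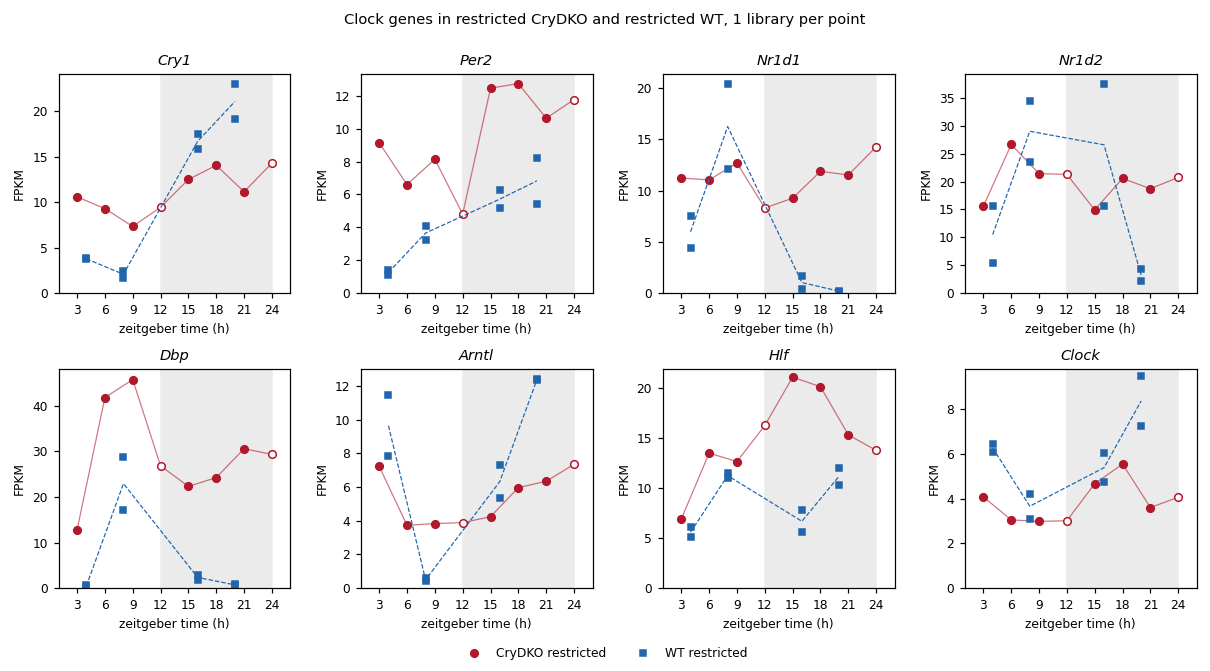
FPKM (linear axis from 0) of 8 clock genes against zeitgeber time in hours, 1 library per point; red circles are restricted CryDKO (open at ZT12 and ZT24, outside the comparison), blue squares restricted WT with the dashed line through the mean of 2 libraries per time, and the shaded span is the dark phase. WT Cry1 is higher and WT Nr1d1 lower in the dark without overlap, while Nr1d1 in CryDKO reads 11.2, 11.05 and 12.7 FPKM in light and 9.26, 11.9 and 11.5 FPKM in dark.

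Markers of other cell types were measured to check the tissue label. Hepatocyte markers summed to 68180.7 to 102365 FPKM in light and 60198.7 to 82993.6 FPKM in dark, far above the sums of the other cell types in every library. Endothelial markers summed to 87.2 to 136.1 FPKM in light and 97.8 to 104.5 FPKM in dark. Of these, 1 of 13 genes was higher at an unadjusted p under 0.05 in limma, against 6.86% of all genes. Stellate cell markers summed to 61.7 to 204.4 FPKM in light, with ZT6 the lowest, and 152.2 to 168.1 FPKM in dark. At that p 2 of 13 were higher, Reln and Col14a1, against 6.86% of all genes. Without ZT6 the stellate list had 0 higher and 2 lower, against 767 and 1225 of all 9958 genes. Its median turned from 0.14 to -0.19. The pancreas markers had a median of -2.19; Ctrb1, a chymotrypsinogen of the acinar cell, had 0.271, 0.151 and 484 FPKM in light and was listed at 0 in all 3 dark libraries. Without the ZT9 library the differences were -1.17 for Plin3, 4.13 for G0s2, 2.23 for G6pc and 3.03 for Hspa8.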

How the data were processed

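Liver RNA was sequenced as stranded mRNA libraries, per the labels' protocols. The deposited table of the authors holds FPKM for 45808 gene rows. The submitters' processing notes name STAR, featureCounts, DESeq2 and GRCm38 without versions. Whether counting used strand is not given in the sources used here, and without strand a gene's reads cannot be separated from those of an overlapping opposite-strand gene. Such an exon overlap exists, among genes named here, for Acaa1b, Apoa4, Arntl, Bhlhe40, Cry2, Ctsl, Dbp, Dnaja1, Dusp1, Elovl3, Glo1, Hmgcs1, Hspd1, Hspe1, Irs1, Irs2, Junb, Map1lc3b, Mt2, mt-Nd5, mt-Nd6, Nr1d1, Rbm3, Reln, Rtn4, Sds, Slc7a2 and Ugt1a9. Coordinates come from a GENCODE annotation of GRCm38, which 41893 symbols matched uniquely.

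The members and the 39 gene lists were chosen with earlier results of these data known. The 9958 genes whose FPKM averaged at least 1 across the 67 libraries entered limma 3.58.1 (R 4.3.3) as log2(FPKM + 1). One fit held the 12 CryDKO libraries of both feedings and phases and gave the restricted difference and its difference from ad libitum. Another held the 6 restricted CryDKO and 8 restricted WT libraries. The threshold was an adjusted p under 0.05. The fitting code was tested on simulated data. Among low values (up to 20 reads), 84.9 to 87.8% per CryDKO library were whole multiples of 1 read within 0.1 reads, and these steps gave the depths. Voom on the recovered reads, with the FPKM denominators as library sizes, was chosen after seeing the data. With these sizes voom kept the scaling of the deposited values.

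Named genes were the core clock genes, the 12 higher and 12 lower genes with the smallest p and a mean of at least 5 FPKM, the 8 with the smallest p of each difference between feedings or genotypes, and up to 4 per list with the greatest difference. Other genes were named after their values were seen. Some genes that these rules select are not reported here. Every CryDKO library carries the replicate number 1. Numbers therefore could pair only WT libraries, and the labels do not tie a number to an animal. Other settings tried were another pseudocount, other filters, 2 scalings, library weights, a correction for GC content and exon length, other sets of libraries and times, another empirical Bayes step, and leaving out each library.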

Additional observations from a re-analysis of the deposited data

Results flagged for a closer look

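Among 24 clock genes and genes named for the difference from WT, 48 WT groups of 4 libraries were searched for a library far from the others, and 1 was found. Ugt1a9, a glucuronosyltransferase that shares exons with the other Ugt1a genes, had 4.84 FPKM in WT replicate 1 at ZT8 against 2.51, 2.52 and 2.54 FPKM in the other 3 light libraries. Chance alone gives about 1 in 20 such groups. Groups of 3 libraries were not searched.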

How the results depend on the processing

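The 3 libraries per phase are 1 per time, and the light ones were deeper (24140000 to 29120000 reads against 10030000 to 17390000 reads). The 0 genes of dark minus light became 2 with a mean of at least 5 FPKM and 2 with median-of-ratios scaling (Plin3 and Hsdl2 both times), 1 with the GC and length correction and 1 with trend and robust empirical Bayes (Plin3), and 1 with the same sum of FPKM and 1 with library weights (mt-Nd6, 1.38 and 1.42). A fit of all 67 libraries, which takes the spread from every group, gave 66 (35 higher, 31 lower). Leaving out 1 library gave 0 to 43. Library weights split the genes at an unadjusted p under 0.05 into 1061 higher and 997 lower, and median-of-ratios scaling into 853 and 898; without a filter 2775 genes had such a p. With the 6 restricted libraries alone, the acute phase genes lower at that p went from 14 to 2, and the higher genes of fasting fat oxidation from 7 to 3, of xenobiotic metabolism from 5 to 0 and of ER stress from 4 to 1.

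The difference between feedings passed for 6 genes in the fit of all 67 libraries, Tff3, 4833420G17Rik, Sult1e1, Pcp4l1, Tbc1d30 and Serpinb1a. With 1 library left out it passed for 0 to 2, the 2 being Fam107b and Sdsl without restricted ZT6. The difference from WT passed for 0 genes with a pseudocount of 0.1, 0 with the same sum of FPKM, 4 with library weights (Cry1, Gm13443 and Tff3 among them), 5 with all 67 libraries (Cry1, Glo1, Gm13443 and E030018B13Rik among them) and 0 to 3 with 1 library left out. Without a filter the count was also 1, but for a different gene, Gm9506. With the WT numbers as a replicate block the count in limma stayed at 1, with 857 genes at an unadjusted p under 0.05. No paired analysis was possible for the CryDKO libraries because all carry 1 number. Genes in this paragraph that the report does not name were picked after their values were seen.

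The same sum of FPKM moved the median of all genes to 0.17 for dark minus light, 0.19 for the difference between feedings and 0.32 for the difference from WT. It turned the sign of Psma7, a proteasome subunit, to 0.0211 and of Rps9, a ribosomal protein, to 0.0914; both had lower values in every dark library. It also turned Nr1d1, Nr1d2, Rora, Dbp, Csnk1d, Hsf1, Cpt1a and Rbm3, which overlapped between phases, and the median of the amino acid stress response list (-0.09 to 0.16). The cause of these moves was not tested, beyond the construction of each setting.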

Other observations

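Targets of glucocorticoids, the adrenal hormones that rise before activity, lay on both sides in restricted CryDKO liver. Of 18 tested, 2 were higher and 7 lower in the dark at an unadjusted p under 0.05 in limma, against 6.86% and 10.2% of all genes. These counts were 3 and 2 without ZT3, against 12.9% and 11.4% of all genes, and 2 and 2 without ZT21. The median of the list was -0.49, -0.13 without ZT3 and 0.33 in the ad libitum libraries. The 2 genes described next were higher, while more of the list was lower. Tsc22d3, a glucocorticoid-induced leucine zipper, had 11.9, 24.2 and 21.4 FPKM in light and 44.4, 62.9 and 37.4 FPKM in dark (1.31 ± 0.38). Dusp1, a phosphatase that ends MAP kinase signalling, had 3.45, 5.92 and 3.22 FPKM in light and 13.6, 18.9 and 9.33 FPKM in dark (1.51 ± 0.47). Both had every dark library above every light one. Junb, an immediate early transcription factor, had 40.5, 8.41 and 8.52 FPKM in light and 4.65, 6.98 and 5.93 FPKM in dark, with ZT3 far above the other light libraries and a difference of -0.48 without it.

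Among 20 genes of amino acid breakdown and the urea cycle, 0 were higher and 3 lower in the dark at an unadjusted p under 0.05 in limma. The shares of all genes were 6.86% and 10.2%, and without ZT15 the lower genes of the list numbered 6. The median of the list was 0.11, but -0.23 without ZT3 and -0.05 without ZT15. Sds, serine dehydratase of gluconeogenic amino acid use, had 117, 83.8 and 74.3 FPKM in light and 65.2, 34.9 and 43.7 FPKM in dark (-0.94 ± 0.23; ad libitum -0.56 ± 0.23). Slc7a2, an arginine transporter, had 32.1, 65.2 and 39.98 FPKM in light and 26.3, 16.99 and 24.6 FPKM in dark (-0.94 ± 0.28). For both, the restricted and the ad libitum differences had the same sign. Tfrc, the transferrin receptor that takes up iron, had 5.36, 8.29 and 4.22 FPKM in light and 10.6, 22.1 and 11.3 FPKM in dark, with no overlap and an unadjusted p of 0.0516 in limma.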
